A study of Homo sapiens with 192 samples.

Results

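The replication licensing and helicase genes described here are MCM2, MCM3, MCM4, MCM5, MCM6, MCM7, MCM10, CDC6, CDT1 and CDC45, 10 genes chosen by name out of the 58243 gene identifiers counted in the series. All 10 were found by Ensembl identifier, and all 10 passed the filter on low counts that left 19387 genes for testing. RNA was sequenced from 4 established human colorectal cancer (CRC) cell lines, each an untreated single line: HT29 and LS513, which the study describes as microsatellite stable (MSS), and HCT116 and LS174T, described as microsatellite instable (MSI). Each line was grown in 2D and in 3D (3D layer growth in the labels), with 3 libraries per growth condition, which gives 8 groups and 24 libraries. No source used here says how the 3D layers of the RNA samples were set up, or whether the 3 libraries of a group came from separate cultures, so the p-values measure only the spread between these libraries. HCT116 was kept in another medium than the other lines, so line and medium cannot be told apart for it.

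Library totals ranged from 18723942 to 34277421 counts, and the licensing and helicase genes had between 776 and 30418 counts in a library, well over a floor of 3 counts. The share of mitochondrial counts was between 1.14% and 6.40%, the highest in replicate 1 of HCT116 grown in 3D. Of 10 colorectal epithelial markers, 8 (HCT116) or 10 (the other lines) were above 3 counts in every library. The exceptions in HCT116 were CDX1 and CEACAM5. The summed leukocyte markers were higher in 3D in every line, carried by LYZ (up to 2660 CPM) and CD68, while PTPRC had at most 2 counts and CD3E none. The 5 fibroblast markers summed to between 0.0592 and 21.8 CPM, the highest from COL1A1 in HCT116, and the 4 endothelial markers to at most 2.38 CPM.

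DNA replication begins at origins that are prepared before S phase. The origin recognition complex marks the origin, and CDC6, an ATPase, and CDT1, its partner, load the ring of MCM2 to MCM7 onto DNA, a step called licensing. In S phase CDC45 and the GINS complex join the ring to form the active replicative helicase, and MCM10 helps to start it. Geminin (GMNN) binds CDT1 and blocks a second loading. Transcription of these genes is known to depend on E2F factors, which are held back by the retinoblastoma family, and the MCM proteins are widely used as markers of cycling cells.

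Their promoters were therefore read for E2F sites. The RefSeq promoter table of GRCh38.p14, with 250 bases before to 50 after each start, holds 8 of the 10 genes, without MCM4 and MCM5. An E2F site was searched on both strands as TTTCCCGC, TTTCGCGC, TTTGCCGC or TTTGGCGC. It was found in 6 of the 8 genes (MCM2, MCM3, MCM6, MCM7, CDC6 and CDT1) and in 3.99% of the 27305 genes of the table. Counted per window, 6 of 12 windows of these genes had a site against 3.31% of 35116. MCM10 and CDC45 had none of these spellings in their windows. MCM6, MCM3, MCM7 and CDT1 are shown with a stretch upstream of the start for their E2F sites, in capitals, and MCM10, the gene with the largest fall, is shown for its CCAAT boxes, also in capitals. All are written 5′ to 3′ on the strand of the gene and end at the last base before the start.
MCM6, chr2:135876444-135876615, minus strand: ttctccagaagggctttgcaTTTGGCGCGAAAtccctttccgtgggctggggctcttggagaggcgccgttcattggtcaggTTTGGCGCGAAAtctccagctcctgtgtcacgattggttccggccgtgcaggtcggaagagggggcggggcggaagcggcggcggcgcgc
MCM3, chr6:52284743-52284936, minus strand: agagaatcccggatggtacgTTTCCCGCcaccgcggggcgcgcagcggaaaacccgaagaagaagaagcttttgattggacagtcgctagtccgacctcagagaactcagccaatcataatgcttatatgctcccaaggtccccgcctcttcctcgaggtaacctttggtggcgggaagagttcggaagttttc
MCM7, chr7:100101398-100101604, minus strand, the only one of its 3 windows with an E2F site: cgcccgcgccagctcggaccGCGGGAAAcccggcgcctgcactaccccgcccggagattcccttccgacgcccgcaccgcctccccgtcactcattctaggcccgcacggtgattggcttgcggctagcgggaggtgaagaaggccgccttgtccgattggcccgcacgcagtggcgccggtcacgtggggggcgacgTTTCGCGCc
CDT1, chr16:88803734-88803788, plus strand: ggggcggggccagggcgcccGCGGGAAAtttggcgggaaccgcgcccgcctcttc
MCM10, chr10:13161420-13161557, plus strand: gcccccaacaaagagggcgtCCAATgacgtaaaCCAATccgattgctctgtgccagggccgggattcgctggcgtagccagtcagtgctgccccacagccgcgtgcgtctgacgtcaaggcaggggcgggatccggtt

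In MCM6 the spellings of both strands overlapped in a pair of identical runs that began 152 and 90 bases before the start. MCM7 had a site 187 and another 9 bases before the start, and CDT1 had 1 site, 35 bases before it. MCM3 had a site 174 bases before the start and a further one across the start itself, while the sites of MCM2 and CDC6 lay just after the start. A CCAAT box (CCAAT on either strand) was in 6 of the 8 genes and in 39.7% of all genes. The cell cycle homology region, searched as TTTGAA, was in 0 of the 8 and in 18.2% of all. With only the last 5 letters of each spelling, the looser E2F core was in all 8, but also in 70.1% of all genes. These are matches of letters and no binding was measured.

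Levels between genes were compared as CPM (each count divided by its TMM-scaled library size) per kilobase of exonic length. MCM7 had the highest level per kilobase of the 10 genes in 7 of the 8 groups, up to 198 in LS174T in 2D, and MCM3 was slightly higher in HCT116 in 2D (159 against 158, within the SD of either). MCM10 was the lowest in all 8 groups, between 5.70 in HT29 in 3D and 20.4 in HCT116 in 2D. The 6 subunits of the ring, which assemble in equal numbers, were not at equal mRNA levels: the highest was 4.07 to 7.04 times the lowest. The lowest subunit was MCM5 in HT29, LS513 and LS174T, and MCM4 in HCT116. Divided by the longest transcript instead, MCM7 was the highest in all 8 groups, MCM10 again the lowest, and the ratio of the ring subunits was 3.46 to 6.27. The loading factors CDC6 and CDT1 and the helicase subunit CDC45 lay between 16.2 and 39.2 per kilobase of exonic length in every group. The antisense gene AC023593.1 covers 22.7% of the exonic length of MCM2 and AP4M1 8.94% of that of MCM7. The libraries were strand specific, but the strand option of the counting was not given, so the levels of these genes carry that limit.

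**Figure D1:**
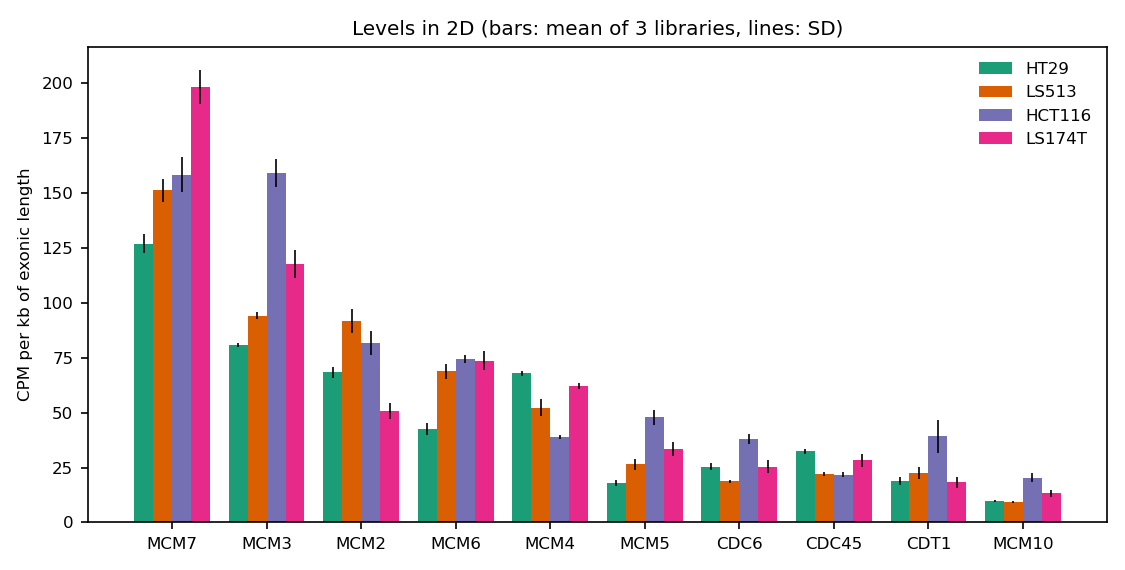
Mean CPM per kilobase of exonic length (vertical axis) of each gene in 2D, with bars for the 4 lines and lines for the SD of 3 libraries. MCM7 reaches 198 in LS174T and MCM10 is lowest in every line.

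Between 4 and 8 of the 10 licensing and helicase genes were called lower in 3D in each line. MCM10 fell to between 58.3% and 63.3% of its 2D level and MCM4 to between 68.7% and 77.4%, and these 2 genes passed the test in all 4 lines. In bulk samples, fewer cells that express a gene and less of its RNA per cell cannot be told apart. MCM5 and CDT1 did not pass in any line with TMM scaling. With an adjusted p under 0.05 (edgeR quasi-likelihood test, Benjamini-Hochberg over 19387 genes), HT29 had 4 of the 10 genes lower in 3D (19.6% of all tested genes were), LS513 had 6 (9.90%), HCT116 had 8 (12.3%) and LS174T had 5 (9.15%). No gene of the 10 was called higher in any line, by edgeR or DESeq2, and none rose at an unadjusted p under 0.05, while 21.1%, 13.7%, 16.8% and 13.1% of all tested genes were called higher. For HT29, LS513, HCT116 and LS174T, the median log2 fold change of the 10 genes was -0.20, -0.26, -0.38 and -0.20, against medians of all genes between 0.00 and 0.02. Of the 40 values, 10 genes in 4 lines, 39 were below 0, and in 27 every 3D library lay below every 2D library. The share of all tested genes separated in this way was not counted, so nothing is read from the 27.

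Of the 23 calls, 17 had an adjusted p under 0.05 in every alternative fit and with any single library of the same line left out. Among them were all those of MCM3, MCM4, MCM10 and CDC6. Leaving out libraries of the other lines was not counted for these calls. With a limit of 0.5 on the size of the log2 fold change, 6 of the 23 remained, those of MCM10 in the 4 lines and of MCM4 in HT29 and HCT116. The 6 calls lost in at least 1 alternative fit or with a library left out were MCM2 in LS513 and HCT116, MCM6 in LS513 and LS174T, MCM7 in LS513 and CDC45 in LS174T. The count in LS513 fell from 6 to 3 without 2D replicate 2, 2D replicate 3, 3D replicate 1 or 3D replicate 2, and to 4 without either remaining library. In LS174T it fell from 5 to 3 without 2D replicate 1, 2D replicate 2, 3D replicate 1 or 3D replicate 3. It rose to 6 without 3D replicate 2, and the median of the 10 genes there went from -0.20 to -0.30. That library was above the other 2 LS174T 3D libraries in MCM2, MCM3, MCM5, MCM6, MCM7, CDT1 and CDC45. In HCT116 the count was 7 or 8 with any library of the line left out, and in HT29 it was 4. Scaled by library totals alone, the counts were 4, 8, 10 and 7, and the share of all calls that were lower went from between 41.2% and 48.1% to between 44.4% and 64.1%. The medians of all genes were then 0.02, -0.09, -0.04 and -0.08 in HT29, LS513, HCT116 and LS174T. The share of all tested genes called lower was not counted for this scaling, so nothing is read from the higher counts.

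**Figure D2:**
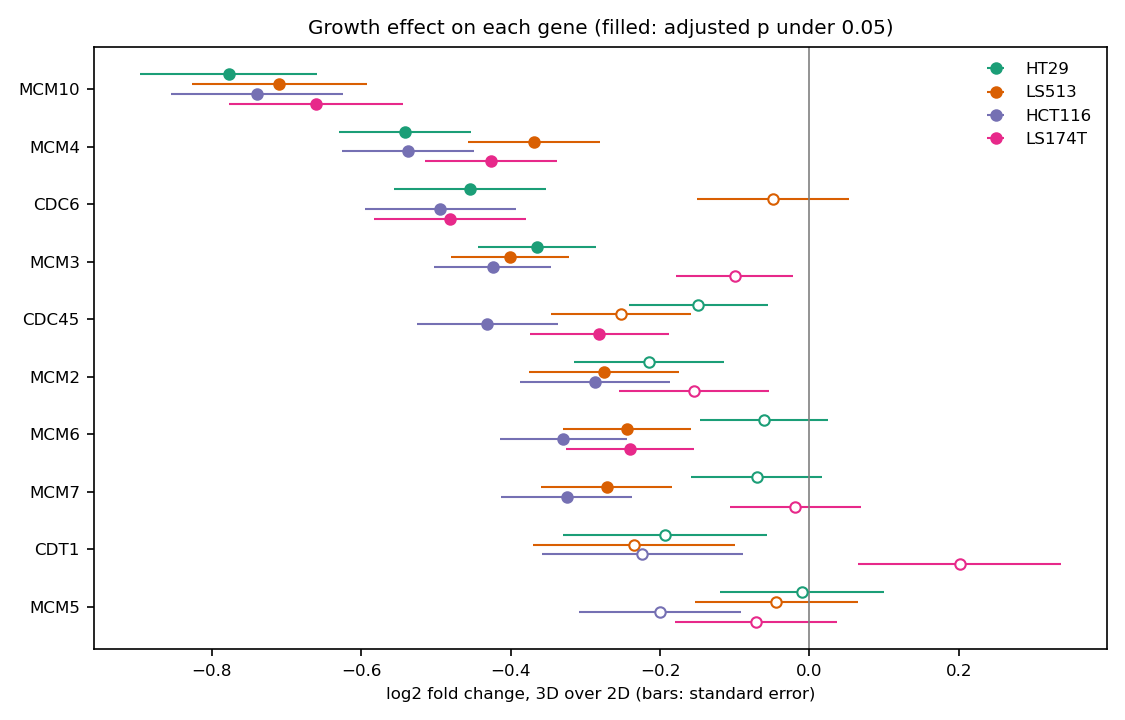
Log2 fold change of 3D over 2D (horizontal axis) of each gene in the 4 lines, with standard errors, ordered by the mean over lines. Filled points passed an adjusted p of 0.05. MCM10 lies between -0.78 and -0.66 and MCM5 between -0.20 and -0.01.

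MCM10, the factor that helps to activate the helicase, had the smallest p of the 10 genes in every line. In HT29 the 2D libraries had 51.3, 52.7 and 55.8 CPM and the 3D libraries 28.5, 29.2 and 35.4 CPM. In LS513 the values were 47.2, 53.7 and 52.0 CPM in 2D and 30.6, 27.6 and 35.3 CPM in 3D. HCT116, with the highest level, had 124, 109.8 and 100.5 CPM in 2D and 62.7, 61.1 and 76.4 CPM in 3D. The groups did not overlap in these 3 lines, and no 3D library came near the lowest 2D library of its line. LS174T had 83.0, 67.6 and 66.3 CPM in 2D and 46.6, 44.0 and 46.6 CPM in 3D, again without overlap. The log2 fold changes were -0.78 ± 0.12 (SE) for HT29, -0.71 ± 0.12 for LS513, -0.74 ± 0.12 for HCT116 and -0.66 ± 0.12 for LS174T, with adjusted p-values of 2.1e-05, 1.1e-04, 5.5e-05 and 3.5e-04 (edgeR). Between 5.19% and 9% of all tested genes had a lower log2 fold change than MCM10 in the same line.

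CDC45, which joins the ring to form the active helicase, fell from 62.0 ± 2.98 to 46.0 ± 2.90 CPM (mean ± SD, n = 3) in HCT116, a log2 fold change of -0.43 ± 0.09 (SE; adjusted p = 0.0014, edgeR). In LS174T it fell from 80.8 ± 8.40 to 66.5 ± 9.05 CPM (-0.28 ± 0.09, adjusted p = 0.033, edgeR), although the libraries overlapped. In LS513 it was -0.25 ± 0.09 with an adjusted p of 0.054 and in HT29 -0.15 ± 0.09 with 0.21 (edgeR). All 3 libraries in 3D lay below those in 2D in these last lines, so the separation was there without the call. In LS513 CDC45 passed under some alternatives and not under others. It passed with the DESeq2 test (adjusted p = 0.045) and with only the 6 libraries of the line (0.018, edgeR). CDC45 was thus the gene closest to the threshold among those not called.

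Among the ring subunits, MCM4 was called in all 4 lines and is therefore given by library. In HT29 it had 471, 469 and 483 CPM in 2D and 313, 309 and 355 CPM in 3D. In LS513 it had 349, 349.7 and 395 CPM in 2D and 276, 257 and 314 CPM in 3D. In HCT116, where the level was lowest, it had 276, 275 and 265 CPM in 2D and 170.1, 190.3 and 202 CPM in 3D. The order of the lines differed from that of MCM10, but the fall was in every line and without overlap. In LS174T the values were 445, 427 and 429 CPM in 2D and 333, 292 and 343 CPM in 3D. The log2 fold changes were -0.54, -0.37, -0.54 and -0.43 in HT29, LS513, HCT116 and LS174T, each with an SE of 0.09, and the highest adjusted p was 0.0036 (edgeR, LS513).

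MCM3 fell by 0.36 ± 0.08, 0.40 ± 0.08 and 0.42 ± 0.08 on the log2 scale in HT29, LS513 and HCT116 (adjusted p at most 8.2e-04, edgeR), with no overlap. In HCT116 this was from 581 ± 23.1 to 433 ± 35.9 CPM. In LS174T it went from 430 ± 23.7 to 401 ± 43.2 CPM, with overlap, and did not pass (-0.10 ± 0.08, adjusted p = 0.38, edgeR). MCM2 fell in LS513 (-0.28 ± 0.10, adjusted p = 0.049) and HCT116 (-0.29 ± 0.10, adjusted p = 0.034) and was -0.21 and -0.16 in HT29 and LS174T. MCM6 fell in LS513, HCT116 and LS174T by 0.24, 0.33 and 0.24, each with an SE of 0.09, and was -0.06 in HT29. MCM7 fell by 0.27 in LS513 and 0.32 in HCT116, each with an SE of 0.09, and was -0.07 in HT29.

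MCM7 was the gene with the largest p in LS174T. The 2D libraries had 909.5, 851 and 851 CPM, and the 3D libraries 849, 976 and 752 CPM, so that 1 library in 3D was above all in 2D and the others below (log2 fold change -0.02 ± 0.09, adjusted p = 0.93, edgeR). MCM5, a ring subunit like the others, had the largest p in HT29 and LS513. In HT29 it had 140.4, 122 and 135 CPM in 2D and 131, 130.4 and 133 CPM in 3D. In LS513 it had 179, 189 and 215 CPM in 2D and 185, 196 and 185 CPM in 3D. The growth conditions overlapped in both. In HCT116 it went from 351 ± 24.8 to 305 ± 20.8 CPM (-0.20 ± 0.11, adjusted p = 0.18, edgeR) and in LS174T from 244 ± 23.2 to 232 ± 46.6 CPM (-0.07 ± 0.11, adjusted p = 0.68, edgeR). The small value in HT29, -0.01 ± 0.11, took the other sign under some scalings.

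Of the loading factors, CDC6 fell in 3 lines. In HT29 it had 144, 149 and 132 CPM in 2D and 88.2, 110.8 and 110.9 CPM in 3D. In HCT116 it had 227, 203 and 205 CPM in 2D and 141, 138 and 172 CPM in 3D. In LS174T it had 160.4, 131 and 131 CPM in 2D and 105, 98.7 and 99.6 CPM in 3D. None of these groups overlapped. In LS513 the libraries had 102, 103 and 108 CPM in 2D and 94.3, 102 and 105 CPM in 3D, with overlap. The log2 fold changes were -0.45, -0.49 and -0.48 in HT29, HCT116 and LS174T and -0.05 in LS513, each with an SE of 0.10, and the adjusted p-values were 0.0011, 8.2e-04, 0.0019 and 0.81 (edgeR).

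CDT1 was called in no line. In HCT116, where it had the largest p of the 10 genes, the 2D libraries had 126, 108 and 157 CPM and the 3D libraries 116, 115 and 105 CPM, with a wide spread in 2D (log2 fold change -0.22 ± 0.13, adjusted p = 0.23, edgeR). In LS174T it was the only positive value of the 40, 0.20 ± 0.14 (adjusted p = 0.30, edgeR), from 69.8, 58.8 and 53.8 CPM in 2D to 67.7, 84.1 and 58.1 CPM in 3D. The groups overlapped, and replicate 2 in 3D was again the highest. In HT29 CDT1 went from 62.9 ± 5.78 to 54.9 ± 1.98 CPM and in LS513 from 74.5 ± 9.22 to 63.3 ± 4.91 CPM.

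**Figure D3:**
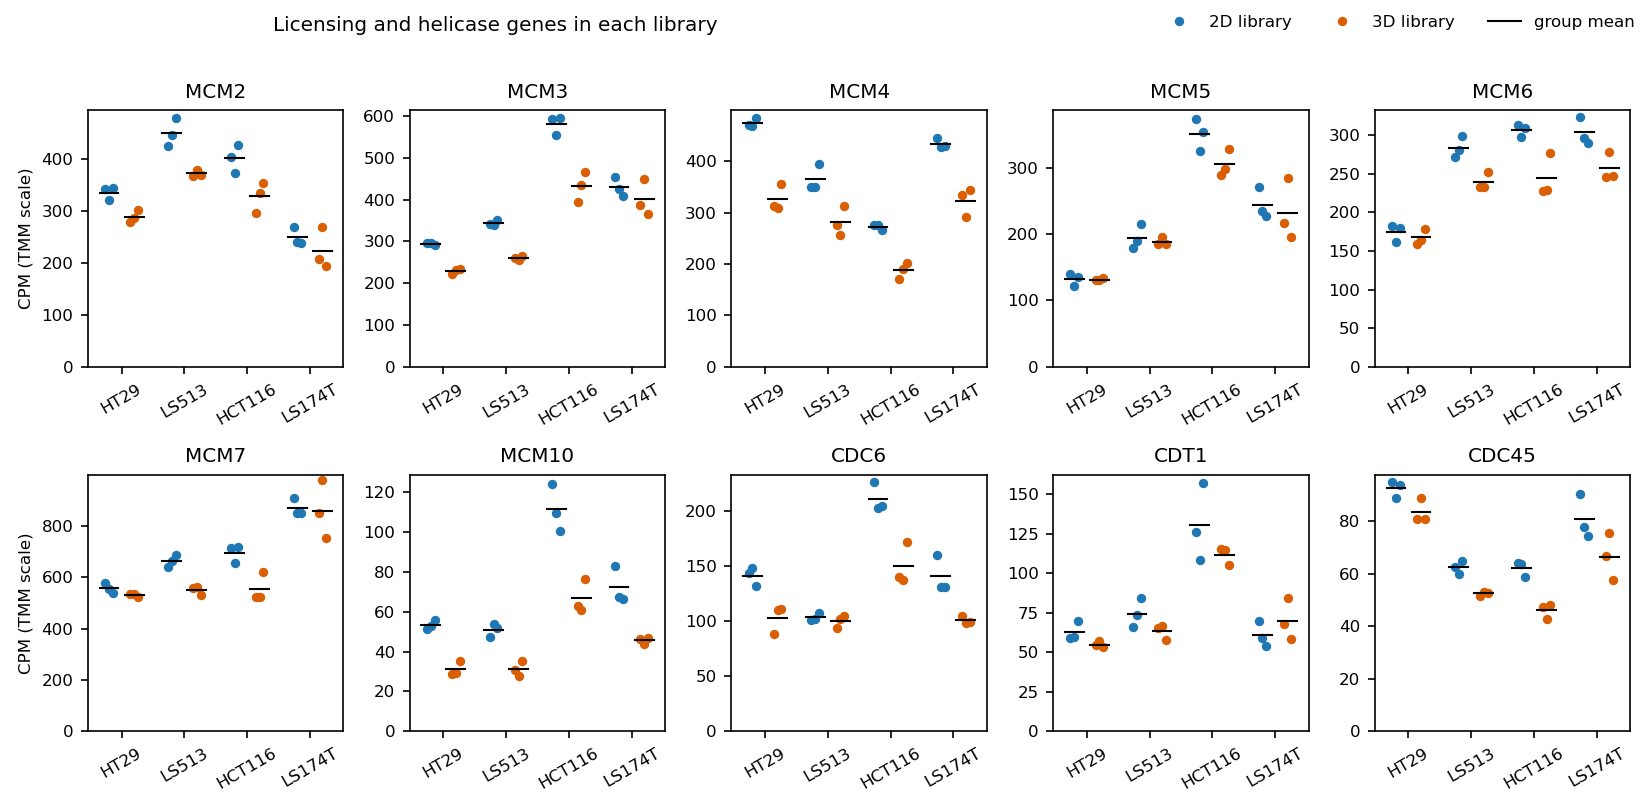
CPM on the TMM scale (vertical axes, from 0) of the 10 genes in each of the 24 libraries, by line, with 2D in blue, 3D in orange and the group mean as a line. The libraries of MCM10 and MCM4 separate by growth in all 4 lines, and replicate 2 of LS174T in 3D is high for MCM2, MCM3, MCM5, MCM7 and CDT1.

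Whether the growth effect differed between the lines was tested by an interaction of line and growth over all 24 libraries. None of the 10 genes passed in edgeR, while 17.1% of all tested genes did, and 2 of the 10 had an unadjusted p under 0.05. The smallest adjusted p was that of CDC6 (0.067), followed by MCM3 (0.11) and MCM7 (0.18). DESeq2 called 2, CDC6 (0.028) and MCM3 (0.033). The largest was that of MCM10 (0.97), whose log2 fold changes ran from -0.78 to -0.66. Leaving out HCT116 3D replicate 3 gave 3 calls (CDC6, MCM7 and MCM3), and leaving out LS174T 3D replicate 3 gave 1 (MCM3). The absence of CDC6 from the calls in LS513, and of MCM3 from those in LS174T, is therefore not shown to be a difference between lines by the main test.

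In 2D each pair of lines differed for 6 to 10 of these genes, and for 57.6% to 68.8% of all tested genes. HT29 and HCT116 differed for all 10 genes (68.8% of all tested genes), HCT116 and LS174T for 9 (68.3%), HT29 and LS513 for 8 (60.6%), and LS513 and LS174T for 8 (57.6%). HT29 and LS174T differed for 6 (64.6%), and LS513 and HCT116 for 6 (68.3%). HCT116 had the highest mean of 6 genes, MCM3, MCM5, MCM6, MCM10, CDC6 and CDT1. MCM5 spanned most, from 132 ± 9.59 CPM in HT29 to 351 ± 24.8 CPM in HCT116, a ratio of 2.65, and each step of its order HT29, LS513, LS174T and HCT116 passed the test. MCM3 had the same order with every step called, from 295 ± 3.11 to 581 ± 23.1 CPM. For MCM6, LS513, LS174T and HCT116 were not told apart, and HT29 was lower (175 ± 11.3 CPM).

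The other genes had other orders. MCM2 was highest in LS513 (450 ± 27.3 CPM), not told apart from HCT116, and lowest in LS174T (249 ± 17.7 CPM). MCM4 ran nearly opposite to MCM3, with HT29 (474 ± 7.89 CPM) and LS174T highest and not told apart, then LS513, and HCT116 lowest (272 ± 5.96 CPM). MCM7 was highest in LS174T (870.3 ± 33.9 CPM), with HCT116 and LS513 not told apart and HT29 lowest. CDC6 and CDT1 were highest in HCT116, 212 ± 13.1 and 131 ± 24.8 CPM, and the neighbours HT29 and LS174T were not told apart for either. MCM10 was highest in HCT116, then LS174T, while HT29 and LS513 were not told apart. CDC45 was highest in HT29 and LS174T, which were not told apart, with LS513 and HCT116 at 62.5 ± 2.38 and 62.0 ± 2.98 CPM. The line with the most mRNA of the loading factors was therefore among the lowest for MCM4 and CDC45.

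The genes that act just before and after licensing were taken as lists of the pathway. Over all tested genes, 19.6%, 9.90%, 12.3% and 9.15% were called lower in HT29, LS513, HCT116 and LS174T. Called higher were 21.1%, 13.7%, 16.8% and 13.1%. All 6 genes of the origin recognition complex were lower in 3D in HT29 and HCT116, 5 in LS513 and 3 in LS174T, with a median log2 fold change between -0.53 and -0.20. ORC6 fell in every line, by 0.39 ± 0.09 in LS174T. Its call in LS174T was lost with only the 6 libraries of that line (adjusted p = 0.060, edgeR). ORC3 fell by 0.68 ± 0.10 in HCT116 and ORC5 by 0.50 ± 0.09 in HT29. Each of them was called lower in HT29, LS513 and HCT116 and not in LS174T. Of 16 genes of origin firing, which turn the licensed ring into a working helicase, 10, 12, 14 and 10 were lower in HT29, LS513, HCT116 and LS174T and none was higher. CDC7, the kinase that phosphorylates the ring, fell in all lines (-0.45 to -0.69), as did MTBP, a partner in CDC45 loading (-0.42 to -0.95). GINS4, a subunit of the GINS complex, fell by 0.66 ± 0.10 in HCT116, 0.62 ± 0.10 in LS174T and 0.48 ± 0.10 in LS513. In HT29 it was -0.15 ± 0.10. Cyclin E, which drives entry into S phase, was lower in HCT116 and LS174T for CCNE1 (-0.48 and -0.56) and in all lines but HT29 for CCNE2 (-0.90, -0.82 and -0.60). CCNE2 in LS174T had an adjusted p of 0.056 (edgeR) without 3D replicate 2. CCNE1 in LS513 was -0.34 with an adjusted p of 0.0503 (edgeR). There it passed under some alternatives, such as the DESeq2 test (adjusted p = 0.044) and library totals (0.0070, edgeR), and not under others.

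Of 13 genes that control licensing, mostly ubiquitin ligase subunits, 9, 6, 7 and 2 were lower in HT29, LS513, HCT116 and LS174T, and 1 was higher. Of all tested genes, 19.6%, 9.90%, 12.3% and 9.15% were lower in these lines. The higher one was GMNN, the inhibitor of CDT1, in LS174T. There its libraries had 50.9, 50.2 and 50.3 CPM in 2D and 54.7, 76.1 and 59.6 CPM in 3D (log2 fold change 0.33 ± 0.11, adjusted p = 0.028, edgeR), while in LS513 it fell from 53.7 ± 1.78 to 39.2 ± 2.25 CPM (-0.46 ± 0.11, adjusted p = 0.0028, edgeR). The call in LS174T was lost without 3D replicate 2 (0.19, adjusted p = 0.21, edgeR). It was also lost without any one of the 2D libraries (adjusted p = 0.067 to 0.077) and with library totals only (0.20, adjusted p = 0.12, edgeR). So it was with all genes that have a count (adjusted p = 0.066), with the replicate block (0.069) and with only the 6 libraries of the line (0.15, edgeR). The other fits kept the call. The effect on GMNN differed between lines (interaction, adjusted p = 0.0032, edgeR). SKP2, a ligase subunit that targets CDT1, fell by 0.76 ± 0.13 in LS513, 0.88 ± 0.14 in HCT116 and 0.57 ± 0.13 in HT29. In LS174T it was -0.37 ± 0.13 and not called (adjusted p = 0.051, edgeR). DTL, which with CUL4 also targets CDT1, fell in all 4 lines (-0.46 to -0.67), and CDC20, which acts in mitosis, fell by 0.86 ± 0.12 in HT29. CDC20 was called lower also in HCT116 (-0.34, adjusted p = 0.031, edgeR), where the libraries overlapped. In LS174T it passed only barely (-0.32, adjusted p = 0.04997, edgeR). In LS513 it was -0.26 and not called (adjusted p = 0.11, edgeR), although the libraries did not overlap. Among the 3 MCM paralogs, MCM8 fell in every line (-0.62 to -0.83) and MCM9 in LS174T (-0.51 ± 0.12). The call of MCM8 was lost in HT29 without 3D replicate 3 (adjusted p = 0.053) and in LS513 without 3D replicate 2 (0.069, edgeR). That of MCM9 was lost with only the 6 libraries of LS174T (adjusted p = 0.080, edgeR).

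Of 27 polymerases and accessory factors of the fork, 11, 20, 19 and 10 were lower and 2, 1, 1 and 1 higher in HT29, LS513, HCT116 and LS174T. TIMELESS, a fork protection factor, and POLE, the catalytic subunit of polymerase epsilon, were lower in all 4 lines (-0.38 to -0.67 and -0.41 to -0.67). PCNA, the sliding clamp, fell by 0.33 ± 0.09 in LS513 and 0.47 ± 0.09 in HCT116 and was -0.10 and -0.16 in HT29 and LS174T. Without 3D replicate 1 its adjusted p in LS513 was 0.052 (edgeR). POLD4, the small subunit of polymerase delta, rose in all 4 lines, by 2.32 ± 0.21 in HCT116 and 1.03 to 1.27 in the others. Of 29 E2F and pocket protein regulators, 12, 12, 13 and 7 were lower and 6, 4, 5 and 4 higher. Of all tested genes, 19.6%, 9.90%, 12.3% and 9.15% were called lower in HT29, LS513, HCT116 and LS174T. Called higher were 21.1%, 13.7%, 16.8% and 13.1%. The numbers of these regulators that were higher lay near those shares, so nothing is read from them. CDKN1C, a CDK inhibitor, rose by 1.45 ± 0.18 in HCT116 and 1.45 ± 0.21 in LS174T. It rose by 1.84 ± 0.35 in HT29, where it had at most 0.653 CPM, and was 0.39 ± 0.18 in LS513, not called. CDKN2B rose by 3.09 ± 0.26 in LS513 and 0.79 ± 0.23 in HCT116. In HT29 CDKN2B was lower (-0.61 ± 0.23), and in LS174T it was -0.58 ± 0.29, not called. Cyclin D1 (CCND1) fell by 1.15 ± 0.13 in HT29.

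All 24 genes of a mitosis list were lower in HT29, and 18, 16 and 10 in LS513, HCT116 and LS174T. Of all tested genes, 19.6% were lower in HT29, and 9.90%, 12.3% and 9.15% in the other lines. In HT29 the median log2 fold change was -0.76 for the mitosis list and -0.20 for the licensing and helicase genes, while in LS174T the medians were -0.23 and -0.20. With an offset for GC content, described below, the medians of the licensing and helicase genes were -0.49 in HT29 and -0.30 in LS174T. The median of the mitosis list was not taken with that offset, so nothing is read from the gap between the lists. TPX2, a spindle factor, fell by 0.87 ± 0.11 in HT29, KIF11, a spindle motor, by 0.83 ± 0.14 in HCT116 and CENPF, a kinetochore protein, by 0.80 ± 0.14 in LS513. MKI67, the proliferation marker, fell by 1.21 ± 0.18 in HT29 and 0.92 ± 0.18 in LS174T. It was -0.48 ± 0.18 in LS513 and -0.45 ± 0.18 in HCT116, with adjusted p-values of 0.056 and 0.064 (edgeR). In HCT116 it passed without 2D replicate 3 (-0.71, adjusted p = 0.0019) or without 3D replicate 2 (-0.58, adjusted p = 0.049, edgeR). With library totals only it passed in both HCT116 (-0.56, adjusted p = 0.037) and LS513 (-0.62, adjusted p = 0.025, edgeR). Both lines also passed with all genes that have a count (adjusted p = 2.8e-04 in each) and with the GC offset (0.022 and 0.027, edgeR). LS513 passed too with only its 6 libraries (adjusted p = 0.011, edgeR) and with the DESeq2 test (adjusted p = 0.049). Under the other fits, or with another library of the line left out, MKI67 did not pass in these lines.

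**Figure D4:**
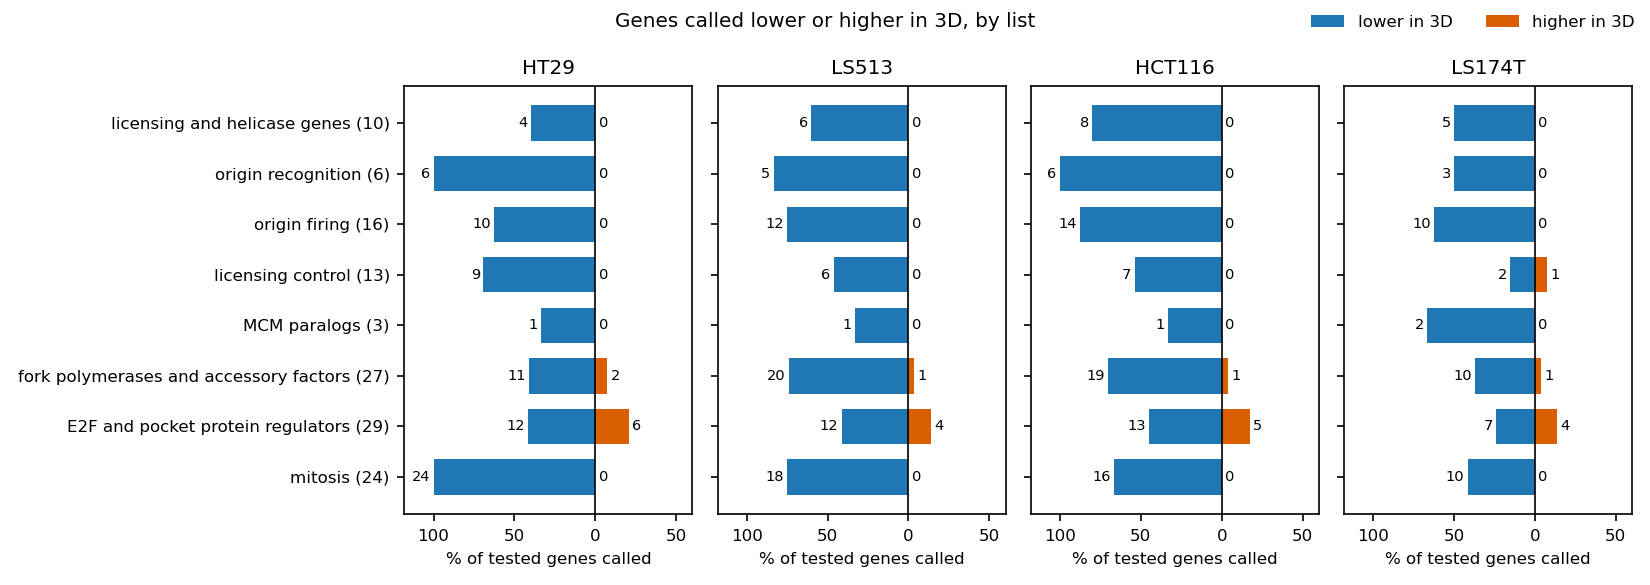
Share of tested genes called lower (blue, to the left) or higher (orange, to the right) in 3D in each line, in percent, for the licensing and helicase genes and 7 lists, with the number of genes tested in brackets and the number called beside each bar. HCT116 has 8 of 10 licensing and helicase genes lower, and HT29 all 24 of the mitosis list. Over all tested genes, 9.15% to 19.6% were called lower and 13.1% to 21.1% higher.

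After log2 CPM values were centred within each line, the median Pearson r over the 45 pairs was 0.747 across 24 libraries, from 0.187 for CDC6 with CDT1 to 0.965 for MCM4 with MCM10. These libraries share the growth contrast, so the values were also centred within line and growth, which left a median of 0.533, with MCM2 and MCM5 highest (0.926) and MCM4 with CDT1 lowest (-0.308). MCM4 had a median r of 0.736 with the other genes before this step and -0.0187 after it, whereas MCM5 went from 0.614 to 0.746. The mean of the 10 profiles centred within a line restates the growth contrast, and LS174T 3D replicate 2 was the one 3D library in which it was above 0 (0.0188). Values of this kind share depth and library, and genes are not independent replicates.

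Of 14606 other genes with a mean of at least 1 CPM, those with the profile most like the mean of the 10 genes were ORC1 (r = 0.957), the largest subunit of the origin recognition complex, MSH6 (0.955), a mismatch repair protein, and CDCA5 (0.946), the cohesion factor sororin. Next came CTPS1 (0.941), which makes CTP, CHAF1B (0.940), a subunit of chromatin assembly factor, and ORC6 (0.939). SCLY, MTA2, LAS1L and SF3A3 followed with r between 0.937 and 0.925. Centred within line and growth, the r of these 10 genes was between 0.588 and 0.771.

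The fold changes of all genes went with the GC content of their transcripts. Across 10328 genes with at least 10 CPM, Pearson r between GC content and log2 fold change was 0.284 for HT29, 0.266 for LS513, 0.314 for HCT116 and 0.258 for LS174T. In the third of genes lowest in GC (at most 44.1%) the line medians of the log2 fold change were -0.27 to -0.13, and in the third highest (above 53.9%) they were 0.12 to 0.15. The 10 genes lay along the same direction. MCM6 (43.1%), MCM10 (43.3%), CDC6 (45.5%) and MCM4 (48.5%) had the lowest GC content of their longest transcript and CDT1 (64.9%), MCM2 (58.1%), MCM7 (57.6%) and MCM5 (57.0%) the highest. CDC45 and MCM3 had 51.4% and 51.6%. Over the 10 genes, r with the log2 fold change was 0.525, 0.335, 0.739 and 0.865 in HT29, LS513, HCT116 and LS174T.

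With an offset per library for GC content, an alternative chosen after the data were seen, the fall was wider spread and the order of the genes changed. HT29 then had 9 of the 10 genes lower, LS513 had 7, HCT116 had 10 and LS174T had 5, against 24.7%, 14.1%, 19.3% and 14.4% of all tested genes. The medians of the 10 genes were -0.49, -0.45, -0.58 and -0.30. MCM10 kept its call in every line (-0.62 to -0.72) and so did MCM4 (-0.44 to -0.65). CDT1 was then lower in HT29, LS513 and HCT116 (-0.56, -0.46 and -0.56) and had a value of -0.08 in LS174T. MCM5 was lower in HT29 (-0.28) and HCT116 (-0.47), whereas MCM6 lost its calls in LS513 (-0.20) and LS174T (-0.19). With library totals only, MCM5 was also called lower in HCT116 (-0.30, adjusted p = 0.017) and CDT1 in LS513 (-0.37, adjusted p = 0.029) and HCT116 (-0.32, adjusted p = 0.048, edgeR). That MCM5 and CDT1 passed in no line thus depends on the scaling, and what the GC relation comes from was not tested.

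**Figure D5:**
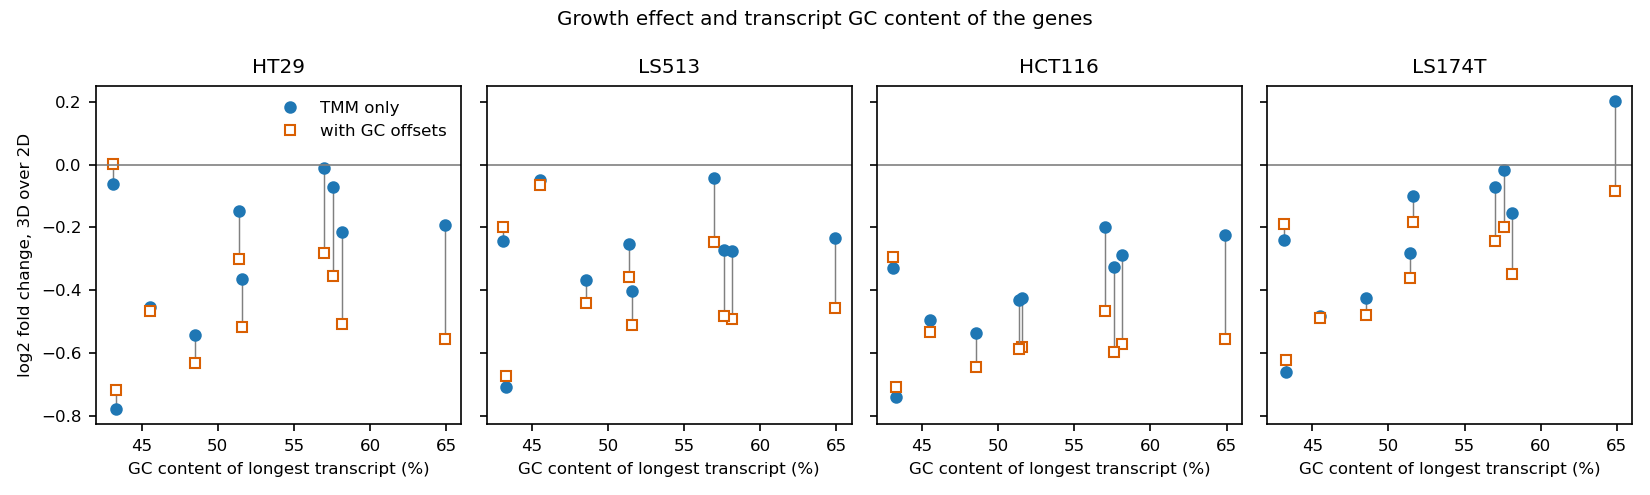
Log2 fold change of 3D over 2D (vertical axis) against the GC content of the longest transcript (horizontal axis, percent) of the 10 genes in each line, with TMM scaling (blue) and with a GC offset per library added (orange squares). The offsets move the genes of high GC content downward, such as CDT1 at 64.9%, and leave MCM10 at 43.3% near its value.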

How the data were processed

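Poly(A) RNA of the 24 libraries was sequenced as strand specific single reads. The authors deposited raw counts per gene, without normalization, for each technical replicate, made with Trim Galore 0.4.1, STAR and HTSeq 0.5.3 per the labels and methods. The labels' processing notes name hg19 and the methods a later Ensembl annotation, and 57980 of the 58243 identifiers are in GENCODE release 29 on GRCh38, which gave symbols, exonic lengths and positions here. Coordinates above are of GRCh38.

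There were 8 technical replicates per library and 7 for 1 library of HT29 in 3D, in 191 sets of counts. They differed by no more than counting error (median chi-square per degree of freedom between 0.905 and 0.934) and were summed. A floor of 3 counts is 0.0875 to 0.160 CPM and covers counting error only.

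edgeR 4.0.16 in R 4.3.3 was run with filterByExpr, TMM and a robust quasi-likelihood fit of 8 groups over 24 libraries, with Benjamini-Hochberg adjustment over 19387 genes. Tests are two-sided, and an adjusted p under 0.05 is a call. A single-gene exact permutation test of 3 against 3 libraries cannot go below 0.1 and was not used. Log2 CPM for correlations had a pseudocount of 0.5. On counts simulated for HT29 with 19113 genes, 33 of 50 genes lowered by 1 on the log2 scale and 7 of 50 lowered by 0.5 were called, with 7 false calls of 18913.

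Alternatives were DESeq2 1.42.0 (size factors and test), library totals, all genes with a count, only the 6 libraries of a line, a replicate block, no technical replicate d, each library left out, a fold change limit of 0.5 and, added after the data were seen, a GC spline of 5 degrees of freedom per library (GC content known for 99.7% of tested genes) and the longest transcript as length.

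The 10 genes and all lists were chosen with earlier results of these data known. Values of every library are given for the gene with the smallest and the largest p in each line and for the smallest interaction p, and for MCM4, added after its values were seen. Other named genes are the one with the smallest p of each list in each line, GMNN, MKI67, CCNE1, CCNE2 and PCNA, and the 10 most alike in profile.

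Same-numbered 2D and 3D libraries did not deviate together (11 pairs, r from -0.146 to 0.0938), so no pairing was used. Protein sequences were not used here.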

Additional observations from a re-analysis of the deposited data

Results flagged for a closer look

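The growth effect differed between the 4 lines for 10 of 25 genes named beside the licensing and helicase genes (edgeR interaction test, adjusted p-values), against 17.1% of all tested genes. Most of the 25 were named for the smallest p of a list within 1 line, which favours such differences, so nothing is read from this share. Of the 10 licensing and helicase genes, edgeR called none and DESeq2 called CDC6 and MCM3. Among genes around licensing these were GMNN (0.0032; log2 fold changes -0.12, -0.46, -0.25 and 0.33 in HT29, LS513, HCT116 and LS174T), ORC3 (0.0352; -0.35, -0.37, -0.68 and -0.10), ORC5 (0.0416; -0.50, -0.30, -0.54 and -0.08) and GINS4 (0.0471; -0.15, -0.48, -0.66 and -0.62). CDC20 (0.0327; -0.86, -0.26, -0.34 and -0.32) and TPX2 (0.0356; -0.87, -0.37, -0.46 and -0.31) were lowest in HT29. POLD4 (0.00626; 1.18, 1.27, 2.32 and 1.03) was higher in 3D in every line. CCND1 (9.83e-05; -1.15, -0.18, 0.10 and -0.10) was called in HT29 alone. CDKN2B (2.9e-07; -0.61, 3.09, 0.79 and -0.58) was called higher in LS513 and HCT116 and lower in HT29. CDKN1C (0.0061; 1.84, 0.39, 1.45 and 1.45) had at most 0.653 CPM in HT29, so its value there rests on few counts.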

How the results depend on the processing

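Of 320 values of the 10 genes under the alternatives other than leaving out a library, 275 kept both direction and side of the threshold. No value that passed the test in the main analysis changed sign under any alternative run. Those that changed sign were MCM5 in HT29 (0.0271 with DESeq2 size factors, 0.0053 with library totals, 0.0363 with all genes that have a count and 0.0271 with the DESeq2 test), and with GC offsets MCM6 in HT29 (0.0021) and CDT1 in LS174T (-0.0842). With single libraries left out, MCM5 ran from -0.0313 to 0.0855 in HT29, from -0.0993 to 0.036 in LS513 and from -0.233 to 0.0389 in LS174T, MCM6 from -0.0789 to 0.0214 and CCNE1 from -0.118 to 0.0313 in HT29, and MCM7 from -0.0666 to 0.0054 in HT29 and from -0.111 to 0.0684 in LS174T. The number of genes lower in 3D, 4, 6, 8 and 5 in HT29, LS513, HCT116 and LS174T, was 2, 1, 2 and 1 with a log2 fold change of at least 0.5 in size. It was 9 in HT29 with GC offsets, 3 in LS513 and 3 in LS174T with all genes that have a count, and 3 in LS174T with only its 6 libraries. Without single libraries it ran from 3 to 4 in LS513 and from 3 to 6 in LS174T. With the replicate block it was 4, 3, 7 and 3, but same-numbered libraries share only a number (r from -0.146 to 0.0938), so that the block stands for no known pairing. The interaction called 2 of the 10 genes with library totals, 2 with DESeq2, 1 with GC offsets and between 0 and 3 without single libraries. LS513 and LS174T differed for 5 genes in 2D with GC offsets, against 8. The median r between the genes was 0.747 within lines and 0.533 within lines and growth. The cause of these changes was not tested, except that the fold limit calls fewer genes by construction. In simulation of HT29, over genes of many levels, 7 of 50 genes lowered by 0.5 on the log2 scale and 14 of 50 raised by 0.5 were called. Fewer genes were changed there than were called in the data, which makes the adjusted threshold stricter. These rates are therefore not those of the 10 genes, for which no rate was simulated. Among them MCM6 was called at -0.24 in LS513 and LS174T.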
